A study of Mus musculus with 27 samples.

Results

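Jejunal organoids from the 2 specific pathogen-free (SPF) facilities, called SR and SE by the microbiota of their mice, were compared at the level of RNA. An intestinal organoid is a three-dimensional culture of pure epithelium that grows from the stem cells of isolated crypts. All libraries labelled as organoid with the microbiota SPF_SR or SPF_SE were members, 12 of the 27 libraries of the series. They came from 6 cultures, 3 of SR mice (Z908, Z909 and Z910) and 3 of SE mice (Z911, Z912 and Z913). From every culture came a library with the label untreated and another with the label tumour necrosis factor (TNF, 5 ng/mL for 8 h), and their counts were summed, so that a culture was the replicate and n = 3 per facility. The donors were C57BL/6J wild-type males, cohoused littermates of 8 to 12 weeks, and the cultures were grown from frozen stocks with commercial reagents bought in bulk.

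The comparison asks whether an earlier life under another microbiota leaves a trace in epithelium that has since grown away from it. In the gut, microbes act on the epithelium through pattern recognition receptors, metabolites and cytokines of the underlying immune cells, and the epithelium answers with antimicrobial peptides, MHC class II molecules and interferon-stimulated genes. In culture these inputs are gone, and what can still differ includes what the stem cells carried along, such as chromatin state and genotype. The state of growth of each culture can differ as well. The paper also proposes bottlenecks at establishment, adaptation to culture and fluctuating growth factors as sources of variation between cultures. The mice of a facility were littermates and the facilities held separate breeding colonies, so that microbiota, colony and litter cannot be told apart in these data.

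The summed counts on genes lay between 38617004 and 63458774 per culture. A floor of 3 counts was 0.0473 to 0.0777 counts per 1000000 counts on genes (CPM), and it covers counting error only. Pearson's correlation of log2 CPM between cultures was 0.935 to 0.956 among the 3 SR pairs, 0.936 to 0.969 among the 3 SE pairs and 0.920 to 0.967 among the 9 pairs across facilities. Each of the 3 SR cultures was closest to Z912, an SE culture. The medians of the 19 autosomes, taken as deviations from the mean of the 6 cultures, lay between -0.071 and 0.085 on the log2 scale. The 13 protein genes of mitochondrial DNA took 6.40% of the counts in Z911 and 2.42% in Z912, with the other cultures between 3.29% and 4.68%.

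The treatment labels needed a check of their own. The labels and the names given to the deposited data disagree on the treatment in every pair, and Nfkbia, the inhibitor that NF-kB induces after TNF, was at 28.2 to 35.8 CPM in the 6 libraries labelled TNF and at 180 to 222 CPM in the 6 labelled untreated. The sum over a culture does not depend on which library was treated.

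**Figure D1:**
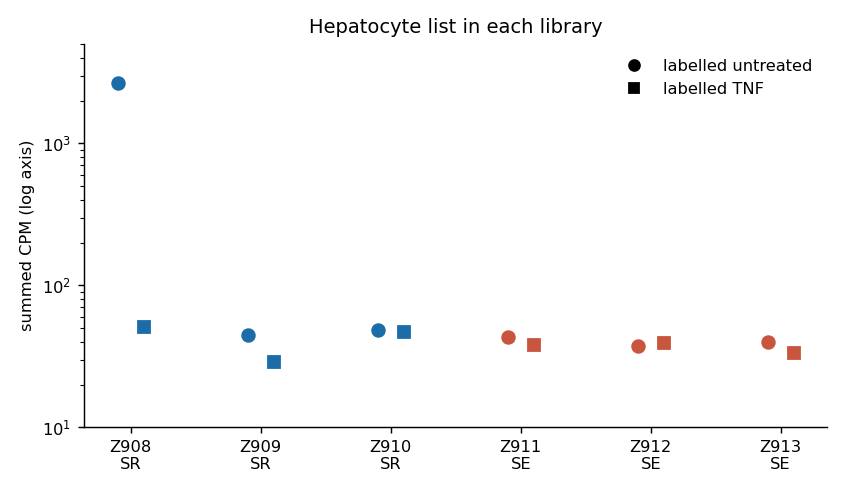
Summed CPM of 30 hepatocyte genes (y axis, log scale) in each SR (blue) and SE (red) library, with circles for libraries labelled untreated and squares for those labelled TNF. The Z908 library labelled untreated is at 2666 CPM and the other 11 lie between 29.0 and 51.3 CPM.

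One culture held liver transcripts. The library of Z908 labelled untreated held 590 CPM of Alb (serum albumin), 154 CPM of Cyp2e1 (a liver cytochrome P450) and 254 CPM of Trf (transferrin), and the other Z908 library held 4.23, 0.196 and 0.925 CPM. Globin and other erythroid genes summed to 66.5 CPM in that same library and to at most 0.0369 CPM in each of the other 11. Albumin is a product of hepatocytes and globin of red cells, neither of which belongs to an epithelial organoid, so that the label and the content of this library disagree. Each difference was therefore also computed without Z908, with 2 SR cultures against 3.

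Across 12908 genes above background, 1 gene had an adjusted p under 0.05 by edgeR's quasi-likelihood test, which is 0.00775% of the genes tested. That gene was Ide, lower in SR. By the thresholds of the study (an unadjusted p no higher than 0.05 together with an absolute log2 fold change no lower than 0.5), 351 genes or 2.72% differed, 147 higher in SR (1.14%) and 204 higher in SE (1.58%). An unadjusted p under 0.05 was reached by 520 genes or 4.03%, a share no higher than the threshold itself. The 3 SR cultures lay above the 3 SE cultures in 538 genes (4.17%) and below them in 589 (4.56%). For a given gene, 1 of the 20 ways to split the cultures into 3 and 3 gives such an order in each direction. With no difference, 1 gene in 20 would thus be expected each way, more than either share found. Lack of overlap is therefore no separate evidence of a difference, here or below. Without Z908 the adjusted threshold was again passed by Ide alone, and 92 genes were higher in SR (0.713%) and 199 higher in SE (1.54%) by the thresholds of the study. Only 176 of the 351 genes were past those thresholds in both fits, 56 higher in SR and 120 higher in SE.

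The facility accounted for 22.2% of the variance of log2 CPM among the 6 cultures. The mean over all 20 ways to split them into 3 and 3 was 20.0%, and the exact permutation p was 0.20, where 0.10 is the smallest that 3 against 3 allows. Without Z908 the share was 25.8% against a mean of 25%, with an exact permutation p of 0.50. On CPM in place of log2 CPM the share with all 6 cultures was 5.37%, with an exact permutation p of 0.90. Single genes are described by name below, and the share was not assigned to them.

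**Figure D2:**
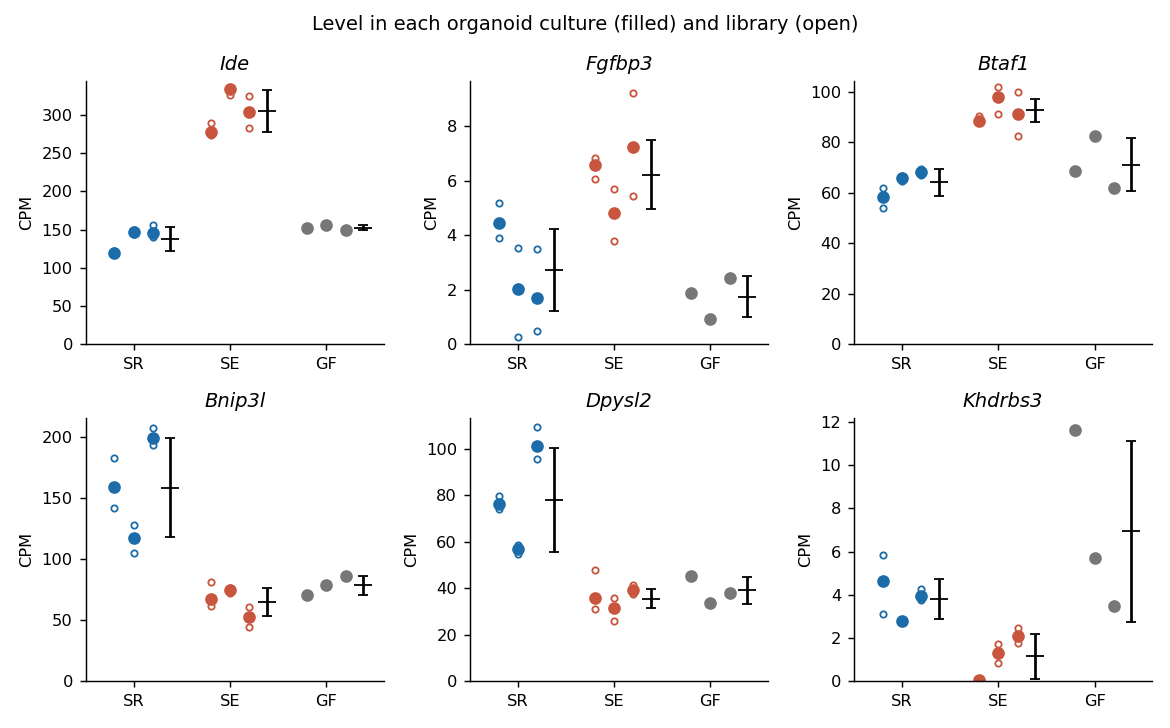
CPM (y axis) of 6 genes in each culture (filled points) and in each of its 2 libraries (open points) for SR, SE and, as cultures only, germ-free (GF) organoids, with bars for the mean and SD of the 3 cultures. Ide is at 120 to 147 CPM in SR, 278 to 334 in SE and 149 to 156 in GF, and Bnip3l is at 117 to 199, 52.6 to 75.0 and 70.8 to 86.4.

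Ide encodes the insulin-degrading enzyme, a zinc metalloprotease that cleaves insulin and amyloid-beta. The gene lies on the minus strand of chromosome 19 at 37268743 to 37337852 (GRCm38). Ide was at 120, 147 and 146 CPM in Z908, Z909 and Z910 and at 278, 334 and 305 CPM in Z911, Z912 and Z913. The groups lay far apart, with means of 138 ± 15.4 and 306 ± 27.9 CPM (SD, n = 3), a 2.22-fold difference. The log2 fold change, SR over SE, was -1.15 with a standard error of 0.12 and an adjusted p of 0.011. Without Z908 it was -1.06 (adjusted p = 0.039). The 6 SR libraries lay between 118 and 156 CPM and the 6 SE libraries between 274 and 333 CPM. The adjusted p rose to 0.10 without Z910, to 0.072 without Z912 and to 0.058 without Z913, while the log2 fold change stayed between -1.21 and -1.06 over all 16 alternatives. In the 3 GF cultures Ide was at 153, 156 and 149 CPM, close to the SR cultures and below all SE cultures. The GF mice were a separate colony, so that microbes and colony cannot be told apart in GF levels, here or below.

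Variation in the copy number of Ide and Fgfbp3 has been described among mice of the C57BL/6J strain, and DNA copy number was not measured here. Fgfbp3, which encodes a secreted binding protein of fibroblast growth factors, lies 351 kb from the start of Ide, with starts taken at the lower coordinate of each gene. Fgfbp3 was at 4.44, 2.02 and 1.70 CPM in the SR cultures and at 6.60, 4.82 and 7.26 CPM in the SE cultures, without overlap. It was higher in SE past the thresholds of the study with all 6 cultures (log2 fold change -1.19, standard error 0.50) and without Z908 (-1.74). Its GF cultures were at 1.88, 0.933 and 2.42 CPM, again nearer to SR.

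Btaf1, a TATA-binding protein associated ATPase, starts 343 kb from Ide beside Fgfbp3. Btaf1 was at 58.2, 65.7 and 68.2 CPM in SR and at 88.5, 97.7 and 91.3 CPM in SE. Its log2 fold change of -0.53 (standard error 0.12) passed the thresholds of the study with 6 cultures and, at -0.47, missed the fold threshold without Z908. The 12 libraries did not overlap. In contrast to these 3 genes, the genes between Btaf1 and Ide did not pass: March5 (a mitochondrial ubiquitin ligase) had a log2 fold change of -0.01 (standard error 0.14) and Cpeb3 (a regulator of translation) one of 0.21 (standard error 0.79). On the far sides, Kif11 (the mitotic kinesin Eg5) had -0.10 and Tnks2 (a tankyrase) -0.05, each with a standard error of at most 0.14.

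Of the 15 tested genes that start within 1000 kb of Ide, 6 passed the thresholds of the study, Ide among them. Of all genes, 2.72% passed. Hhex, Rbp4 and Btaf1 did so only with Z908. Beside Ide, Fgfbp3 and Btaf1, the others were Myof (myoferlin), at 6.17, 10.1 and 8.66 CPM in SR and 19, 11.3 and 19.1 CPM in SE, and Hhex and Rbp4, whose highest value was in Z908. Rbp4, the liver-made carrier of retinol in blood, was at 25.5 CPM in Z908, at 0.395 to 2.05 CPM in the other 5, and its log2 fold change went from 3.27 to 0.75 without Z908.

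**Figure D3:**
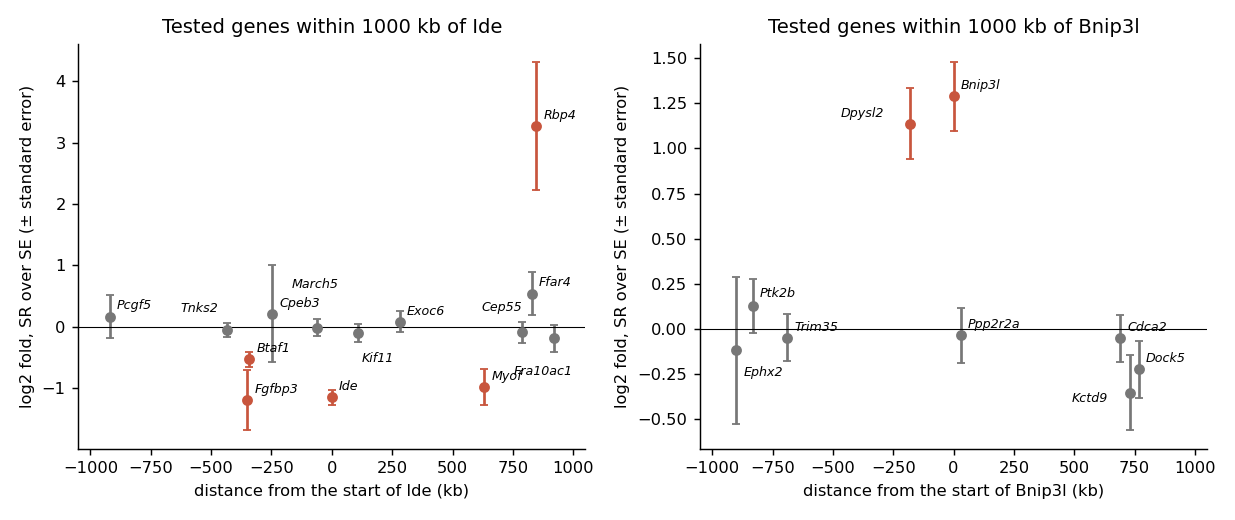
Log2 fold change, SR over SE, with its standard error (y axis) for tested genes within 1000 kb of the start of Ide (left) and Bnip3l (right) that reach 5 CPM in at least 1 culture, against distance from that start (x axis, kb). Red points passed the thresholds of the study, and on the right only Dpysl2 (1.14) and Bnip3l (1.29) did.

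The annotated starts of Ide, Fgfbp3 and Btaf1 are shown because these genes, which start within 351 kb of each other, were higher in SE with all 6 cultures. Each run covers 250 bases before to 50 bases after the RefSeq start in GRCm38.p6, 5′ to 3′ on the strand of the gene. The windows are chr19:37334495-37334794 on the minus strand for Ide, chr19:36919550-36919849 on the minus strand for Fgfbp3 and chr19:36925829-36926128 on the plus strand for Btaf1. Capitals mark exact matches, on either strand, to any of 5 motifs.
Ide: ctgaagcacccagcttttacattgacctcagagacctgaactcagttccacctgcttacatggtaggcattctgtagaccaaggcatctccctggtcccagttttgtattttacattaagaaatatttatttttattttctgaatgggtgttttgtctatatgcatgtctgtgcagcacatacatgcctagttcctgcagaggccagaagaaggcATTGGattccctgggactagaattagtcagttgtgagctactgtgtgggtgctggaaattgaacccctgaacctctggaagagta
Fgfbp3: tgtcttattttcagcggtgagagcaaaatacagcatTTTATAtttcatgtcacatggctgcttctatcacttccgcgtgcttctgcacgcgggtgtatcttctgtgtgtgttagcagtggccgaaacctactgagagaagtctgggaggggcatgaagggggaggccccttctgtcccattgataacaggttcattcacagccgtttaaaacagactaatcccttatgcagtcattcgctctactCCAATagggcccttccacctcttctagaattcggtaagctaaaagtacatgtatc
Btaf1: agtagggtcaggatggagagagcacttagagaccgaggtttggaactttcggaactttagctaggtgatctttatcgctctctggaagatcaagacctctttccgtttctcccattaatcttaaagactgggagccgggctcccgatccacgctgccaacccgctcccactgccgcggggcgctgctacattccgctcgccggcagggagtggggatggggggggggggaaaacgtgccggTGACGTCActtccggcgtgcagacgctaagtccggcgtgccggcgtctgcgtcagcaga

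The motifs searched were GGGCGG (known as the GC box), CCAAT (bound by the factor NF-Y), TGACGTCA (the cAMP response element), CACGTG (an E-box) and TATAAA (the TATA element), and no match overlapped another in these windows. CCAAT occurred once in the Ide window and once in the Fgfbp3 window, and 37.4% of the 32851 promoters of the same length hold it. TATAAA occurred once in the Fgfbp3 window and in 13.6% of all promoters. TGACGTCA occurred once in the Btaf1 window and in 1.79% of all promoters. No motif was shared by all 3 windows. The RefSeq start used for Ide lies 3308 bases inside the GENCODE gene, so that its window need not be the start used in these cells.

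Bnip3l and Dpysl2 were higher in SR, and they are neighbours on chromosome 14. Bnip3l (Nix) encodes a receptor in the outer mitochondrial membrane that marks mitochondria for removal by autophagy, and lies at 66985239 to 67008877. Bnip3l was at 159, 117 and 199 CPM in Z908, Z909 and Z910 and at 67.4, 75.0 and 52.6 CPM in Z911, Z912 and Z913. The lowest SR culture lay well above the highest SE culture, and the means were 159 ± 40.9 and 65 ± 11.4 CPM (SD, n = 3). The log2 fold change was 1.29 with a standard error of 0.19 (adjusted p = 0.12), and 1.28 without Z908 (adjusted p = 0.17). The gene had the second smallest p of all genes and passed the adjusted threshold in 5 of 16 alternatives. Among them were a limma model of the 12 libraries with the replicate block (adjusted p = 0.0024) and the fit without Z909 (adjusted p = 0.017). The block model uses the same correlation, 0.201, for all genes. Its p can be too small for a gene whose 2 libraries of a culture lie closer together than that.

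Dpysl2 (CRMP2), a collapsin response mediator protein that binds tubulin and shapes microtubules, lies at 66802864 to 66868688, 182 kb from Bnip3l. Dpysl2 was at 76.1, 56.7 and 101 CPM in SR and at 35.8, 31.3 and 39.3 CPM in SE. The order of the 3 SR cultures was the same as for Bnip3l, with Z909 lowest and Z910 highest. The log2 fold change was 1.14 with a standard error of 0.20 (adjusted p = 0.37), and 1.15 without Z908 (adjusted p = 0.54). With the replicate block the adjusted p was 0.034, and without Z909 it was 0.026. In GF organoids both genes were at the SE level, with Bnip3l at 70.8 to 86.4 CPM and Dpysl2 at 33.7 to 45.2 CPM.

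The other genes near this pair did not pass. Gm5464 and Pnma2, between Dpysl2 and Bnip3l, were at 0 to 0.977 CPM in the 6 cultures. Ppp2r2a, a regulatory subunit of protein phosphatase 2A that starts 28.8 kb from Bnip3l, had a log2 fold change of -0.04 (standard error 0.15). Among the 21 tested genes of autophagy and mitophagy, Bnip3l and Calcoco1 passed the thresholds of the study, both higher in SR. Over all genes 1.14% were higher in SR, and the list was chosen with earlier results of these data known. The list had a median log2 fold change of 0.02 where the median of all 12908 genes was -0.003. Calcoco1, an autophagy receptor, was at 13.7, 12.3 and 12.7 CPM in SR and at 4.16, 9.98 and 7.47 CPM in SE, and did not pass without Z908. Bnip3, the closest relative of Bnip3l, was at 33.8 to 68.5 CPM in SR and 44.9 to 55.9 CPM in SE. Among the other collapsin response mediator proteins Dpysl3 went the other way, at 2.40 to 4.20 CPM in SR and 3.51 to 10.9 CPM in SE, past the thresholds of the study with 6 cultures but not without Z908.

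Khdrbs3, a STAR family RNA-binding protein that regulates splicing, was higher in each SR culture than in any SE culture but passed no threshold. Khdrbs3 was at 4.63, 2.78 and 3.96 CPM in SR and at 0.0263, 1.30 and 2.10 CPM in SE. The groups did not overlap, but the standard error of the log2 fold change (1.72) was 1.00, and the adjusted p was 1.00. Its GF cultures were at 11.6, 5.71 and 3.48 CPM. None of the 4 tested genes of the STAR family passed with all 6 cultures. Ide, Bnip3l, Dpysl2 and Khdrbs3 were among the 34 genes whose 6 SR and 6 SE libraries did not overlap. These were 17 in each direction, or 0.132% of the genes tested each way. The share expected with no difference was not computed, and the 2 libraries of a culture are not separate replicates. Membership is therefore no separate evidence of a difference.

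**Figure D4:**
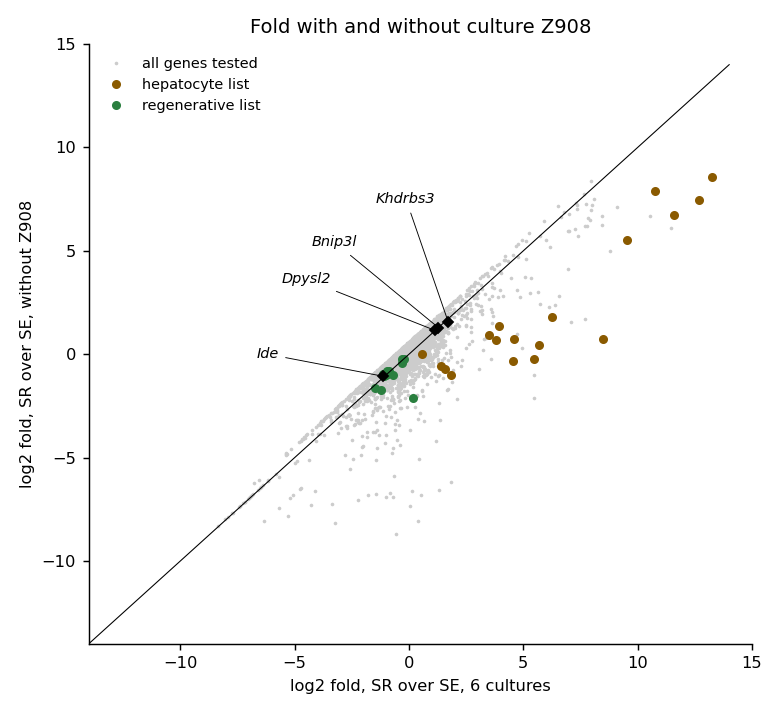
Log2 fold change, SR over SE, with all 6 cultures (x axis) and without Z908 (y axis) for the 12908 genes tested, with the hepatocyte list (brown), the regenerative list (green) and the 4 genes Ide, Bnip3l, Dpysl2 and Khdrbs3 (black). The hepatocyte genes fall away from the line of equality, with a median of 5.02 on the x axis and 0.72 on the y axis, while Ide lies at -1.15 and -1.06.

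In all, 112 genes passed the adjusted threshold or passed the thresholds of the study in both fits without overlap between the cultures, 35 of them higher in SR and 77 higher in SE. The 25 with the smallest p held 9 that were higher in SR and 16 that were higher in SE. Apart from Ide, none of these 25 had an adjusted p under 0.05 by edgeR with all 6 cultures, and their adjusted p lay between 0.12 and 1.00.

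Slc4a11, Ano1, Emp1 and Ahnak were among the 16 that were higher in SE. Slc4a11, a membrane transporter of the bicarbonate transporter family, was at 0.808, 1.21 and 1.07 CPM in SR and at 19.1, 3.41 and 5.80 CPM in SE (log2 fold change -3.19, standard error 0.64). Ano1, the calcium-activated chloride channel, was at 4.49, 4.75 and 6.19 CPM in SR and at 17.8, 8.94 and 20.8 CPM in SE (-1.63, standard error 0.34). For both genes Z912 was the lowest of the SE cultures. Emp1, an epithelial membrane protein, was at 61.5 to 81.1 CPM in SR and at 106, 84.4 and 153 CPM in SE, and Ahnak, a very large scaffold protein under the plasma membrane, at 27.6 to 47.2 and at 71.6, 60.7 and 110 CPM.

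Lrrfip1, Kifc3 and Pdia2 were also higher in SE. Lrrfip1, a nucleic acid-binding protein, was at 26, 25.3 and 27.7 CPM in SR and at 46.1, 35.5 and 40.6 CPM in SE (log2 fold change -0.63, standard error 0.16). Kifc3, a minus-end directed kinesin, was at 4.61 to 7.45 CPM in SR and 11 to 14.2 CPM in SE, and Pdia2, a protein disulfide isomerase, at 8.93 to 10.7 and 15.3 to 19 CPM. Lrrfip1 and Kifc3 did not overlap between the libraries either. Higher in SE as well were Sprr2a3 (45.5 to 67.0 against 70.2 to 131 CPM) and Prl2c3 (1.10 to 1.73 against 2.04 to 10.5 CPM). So were 2010109I03Rik (0.285 to 0.721 against 0.994 to 8.39 CPM) and Gm47283 (6.40 to 26.6 against 29.4 to 199 CPM). Where a gene has close copies, the counting could split its reads. Likeness of sequence was not measured here, so that these values are uncertain. Vmn1r53, Gm7173 and Pcdhb18 were at 0 to 0.0316 CPM in SR, under the floor, and at 0.171 to 4.10 CPM in SE.

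Apart from Bnip3l and Dpysl2, the genes higher in SR were of 2 kinds. Bmp3, a ligand of the TGF-beta superfamily, was at 74.7, 56.1 and 73.9 CPM in SR and at 28.1, 47.3 and 44.3 CPM in SE (log2 fold change 0.77, standard error 0.20). Cc2d2a, a protein of the ciliary transition zone, was at 26.7, 17.0 and 27.5 CPM in SR and at 9, 14.8 and 12.8 CPM in SE (0.96, standard error 0.26). Tssk1, a kinase of the testis, was at 0.582 to 1.12 CPM in SR and at or under 0.016 CPM in SE. The remaining 4 were liver-expressed genes with their highest value in Z908. Tat (tyrosine aminotransferase) was at 32.3 CPM in Z908, Ahsg (fetuin-A) at 45.3 CPM, Cyp2e1 at 66.3 CPM and C4b (complement component 4B) at 9.78 CPM. They stayed past the thresholds of the study without Z908 on traces in Z909 and Z910 of 0.0158 to 1.79 CPM, because the SE cultures were at 0 to 0.032 CPM.

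The hepatocyte list shows how far the liver transcripts reach into the comparison. The 30 genes of the list summed to 1178 CPM in Z908, 36.3 in Z909 and 47.5 in Z910, and to 36.4 to 41.7 CPM in the SE cultures. Of the 18 tested, 14 were higher in SR past the thresholds of the study with all 6 cultures and 4 without Z908. The median log2 fold change of the list was 5.02, also with the 5 genes at or under the floor in SE set to their lower bound, and 0.72 without Z908. Over all genes, 91 of the 147 that were higher in SR no longer passed without Z908, and 84 of the 204 that were higher in SE. Leaving out a culture also lowers the power of the test. The part of the liver transcripts in genes outside the list was not tested.

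**Figure D5:**
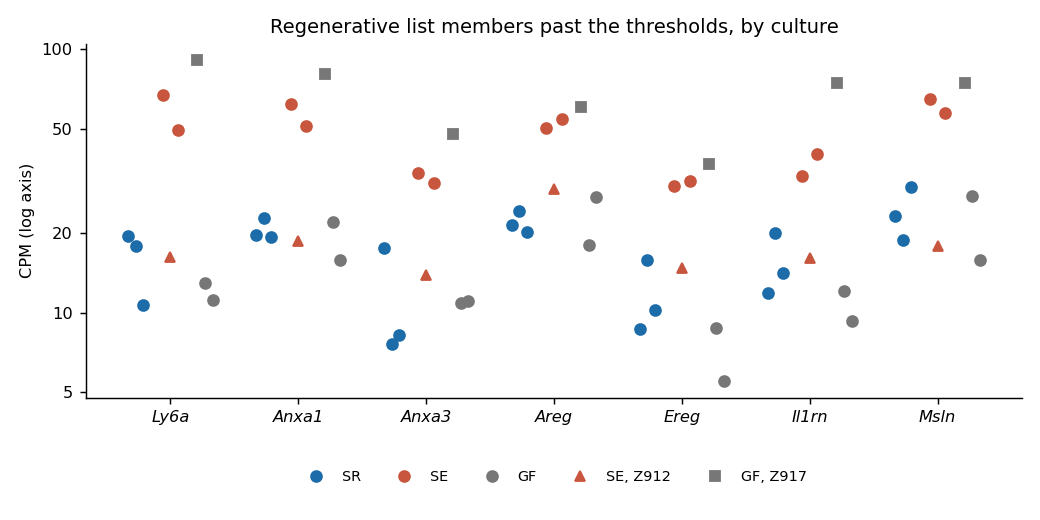
CPM (y axis, log scale) of the 7 regenerative list members past the thresholds of the study in each SR (blue), SE (red) and GF (grey) culture, with a triangle for Z912 and a square for Z917. Z911 and Z913 lie above all SR cultures in 7 of 7 genes and Z912 in 1 of 7, and Z917 lies above all 6 SPF cultures in 7 of 7.

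The genes of regenerative or fetal-like epithelium formed the list with the most members higher in SE. These genes mark the state that intestinal epithelium takes on after injury and in spheroid growth, in which crypt cells lose part of their adult identity. Of the 13 tested, 7 were higher in SE past the thresholds of the study and none higher in SR, where 1.58% of all genes were higher in SE. The same count held without Z908, and it ranged from 5 (without Z913) to 7 as each culture was left out. The median log2 fold change was -0.95 (-0.97 without Z908), against -0.003 for all genes. This list, like the others, was chosen with earlier results of these data known, so that its count and median are no separate evidence.

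Ly6a (Sca-1), the surface marker of that state, was at 19.5, 18.0 and 10.7 CPM in Z908, Z909 and Z910 and at 67.4, 16.2 and 49.5 CPM in Z911, Z912 and Z913. Anxa1 (annexin A1, a regulator of inflammation) was at 19.7, 23.0 and 19.4 CPM in SR and at 61.9, 18.7 and 51.2 CPM in SE. Msln (mesothelin) was at 23.3, 18.8 and 30.0 CPM in SR and at 64.6, 17.8 and 57.5 CPM in SE. Z911 and Z913 were high in all of these, while Z912 lay below the highest SR culture in each, and below all 3 for Anxa1 and Msln, and the facilities overlapped in 6 of the 7 genes. The exception was Areg (amphiregulin, a ligand of the EGF receptor), at 21.5, 24.2 and 20.3 CPM in SR and at 50.3, 29.5 and 54.3 CPM in SE (log2 fold change -1.02, standard error 0.22). Ereg (epiregulin), another ligand of that receptor encoded 65 kb from Areg, was at 8.69 to 15.8 CPM in SR and at 30.1, 14.7 and 31.6 CPM in SE. Anxa3 and Il1rn (the interleukin 1 receptor antagonist) had the same shape. Among the GF cultures, Z917 exceeded all 6 SPF cultures for each of the 7 genes, and Z918 and Z919 lay below Z911 and Z913 for each. Within a facility Ly6a ranged from 16.2 to 67.4 CPM in SE and from 11.2 to 91.1 CPM in GF, a wider range than the 10.7 to 19.5 CPM in SR. Clu, another marker of the state, was at 8.60 to 11.4 CPM in SR and 7.36 to 16.4 CPM in SE.

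Of the 9 Paneth cell genes tested, Lyz1 (lysozyme), Defa24 (a defensin), Ang4 (an antimicrobial ribonuclease) and Itln1 (a lectin) were higher in SE past the thresholds of the study, and Ang4 and Itln1 also without Z908. With all 6 cultures 1.58% of all genes were higher in SE, and the Paneth cell count fell to 1 without Z913. Lyz1 was at 78.1, 130 and 100 CPM in SR and at 146, 136 and 161 CPM in SE, without overlap. The goblet cell gene Clca1 was at 0.840, 7.45 and 1.95 CPM in SR and at 16.8, 5.58 and 19.8 CPM in SE, and the other 10 goblet cell genes tested did not pass, with Clca1 overlapping between the facilities. Among 15 stem cell genes, Ascl2, Tnfrsf19 and Cd44 were higher in SE in both fits, while the median of the list was -0.13. That count was 0 without Z911 and 1 without Z909, and 1.58% is again the share of all genes. Tnfrsf19 (Troy, a receptor of Wnt-responsive stem cells) was at 0.285 to 0.954 CPM in SR and at 10.0, 0.978 and 2.26 CPM in SE. None of the 12 proliferation genes or of the 9 tuft cell genes tested passed, and of 15 enteroendocrine genes Pyy (peptide YY) was higher in SR, though not without Z908. In a culture, fewer cells of a type and less RNA per cell cannot be told apart.

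The level of the enterocyte genes cut across the facilities. The 24 genes summed to 6358, 10482 and 6652 CPM in Z908, Z909 and Z910 and to 6484, 9549 and 12578 CPM in Z911, Z912 and Z913. Z909, Z912 and Z913 were high and the other cultures low. Fabp1, Apoa1 and Krt20 were higher in SE past the thresholds of the study with all cultures, but the count was 15 of 24 without Z909, 10 without Z911 and 0 without Z910 or Z913. Over all 12908 genes, 204 (1.58%) were higher in SE with all cultures, 353 without Z909 and 237 without Z911. The 26 genes of xenobiotic and bile acid metabolism behaved alike, with Cyp3a13 past the thresholds of the study with all cultures, 13 genes without Z911, 8 without Z909 and 0 without Z908, Z910 or Z913. Of the region markers, Cybrd1 and Fabp1 of 10 proximal genes and Slc10a2 (the ileal bile acid transporter) of 11 distal genes were higher in SE. As each culture was left out, the proximal count ranged from 1 to 3 and the distal count from 0 to 2.

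Genes that the microbiota is known to act on were listed as well. Of the 19 tested, Reg3b was higher in SR and Nos2 and Ang4 were higher in SE past the thresholds of the study, against 2.72% of all genes in either direction. The count was 1 to 4 as each culture was left out, and the median was -0.11 with all 6. Reg3b, an antibacterial lectin, was at 38.8, 17.2 and 43.9 CPM in SR and at 13.4, 12.5 and 17.7 CPM in SE, so that Z909 lay among the SE cultures. Nos2 (inducible nitric oxide synthase) was at 5.52, 11.2 and 8.77 CPM in SR and at 16.0, 12.5 and 18.8 CPM in SE, without overlap. None of the 5 tested MHC class II genes passed, and Cd74, the invariant chain, was at 1.35 to 1.83 CPM in SR and 0.395 to 0.701 CPM in SE. Of 18 interferon response genes Ifit3 and Oasl2 were higher in SE, at 4.47 and 7.79 CPM in Z911 and at no more than 3.98 CPM in the other 5 cultures, and the count, beside 1.58% of all genes, was 0 without Z911 and without Z910.

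Other lists bore on the named genes or on the donors. Of the 13 tested peptidases of insulin, amyloid and related peptides, Ide was the only one past the thresholds of the study with 6 cultures. The C57BL/6 substrain list had 4 tested genes, of which Ide and Fgfbp3 passed in both fits. Over all genes, 1.58% were higher in SE with all 6 cultures and 1.54% without Z908. Both lists were chosen with earlier results of these data known and hold Ide, so that these counts are no separate evidence. Nnt, the mitochondrial transhydrogenase that is deleted in part in C57BL/6J, was at 104, 104 and 105 CPM in SR and at 81.2, 107 and 93.3 CPM in SE, and at 191 to 264 CPM in the GF cultures. The 4 tested Y-linked genes did not differ past the thresholds, with each of Ddx3y, Eif2s3y, Kdm5d and Uty at 21.9 CPM or more in all 6 cultures. Of 18 imprinted genes Igf2 was higher in SR (17.8, 15 and 24.1 against 9.71, 14.5 and 13 CPM) and Ascl2 higher in SE. None of the 19 genes of cholesterol synthesis passed.

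Markers of cells outside the epithelium were low. Immune cell genes summed to 5.70 to 12.8 CPM over the 6 cultures, fibroblast genes to 13.9 to 21.2 CPM, endothelial genes to 0.535 to 3.87 CPM, smooth muscle genes to 0.210 to 2.11 CPM and genes of enteric glia and neurons to 1.33 to 3.76 CPM. Of the 15 genes tested on these lists, Tek (0.0316 to 0.535 CPM in SR, 0 in SE) was the only one past the thresholds of the study. Genes of pancreatic acinar cells summed to 19.9 to 46.9 CPM and none of the 2 tested passed.

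The difference between the libraries labelled TNF and untreated was then compared between the facilities, with the culture as a block. No gene of 12611 had an adjusted p under 0.05 for the interaction by edgeR, 461 (3.66%) had an unadjusted p under 0.05, and DESeq2 called 2. Of the 21 TNF response genes tested, none had an unadjusted p of at most 0.05. Nfkbia was lower in the library labelled TNF by a log2 value of 2.62 on average in SR and 2.72 in SE, in 6 of 6 cultures. The difference of those responses was 0.10 with a standard error of 0.17. C3, the central complement component, was at 106 CPM in Z908 and at 14.2 to 27.8 CPM in the other 5 cultures, and it was higher in SR past the thresholds of the study with Z908 and not without it. Ide had a difference of responses of -0.14 (standard error 0.14), Bnip3l one of -0.37 (0.19) and Dpysl2 one of -0.47 (0.23). The 6 SR and 6 SE libraries of these 3 genes did not overlap, whichever label they carried.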

How the data were processed

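RNA of 18 organoid libraries (9 cultures) was used, of which 12 libraries (6 cultures) were compared and 6 (GF) gave levels only; m-ICc12 and fibroblast libraries were not used here. The authors trimmed reads with Trimmomatic, aligned them to GRCm38 with STAR (2.5.4b in the submitters' processing notes) and counted reads per gene. The deposited values are raw counts for 22524 genes, of which 22214 matched a GENCODE vM21 symbol. Use of strand and of reads with several alignments is not given in the sources used here.

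Counts of the 2 libraries of a culture were summed. A gene was tested if 50% or more of the cultures of either facility held 10 counts or more. The test was edgeR 4.0.16 (quasi-likelihood, TMM, Benjamini-Hochberg adjustment over all genes tested) in R 4.3.3. DESeq2 1.42.0 and limma 3.58.1 were alternatives. CPM are TMM-scaled (over the 6 cultures, and over all 9 for GF levels). Shares of variance were taken on a log2 scale (prior count 2), or on CPM where so named. The interaction used 12 libraries with culture as a block. The fits were tested on simulated data. Each culture holds a mouse of its own, littermates within a facility, so p-values measure the spread between these cultures.

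The 2 libraries of a culture share its number in the labels. Their deviations from the group means correlated at 0.104 to 0.122 in SR and 0.187 to 0.228 in SE.

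The members and the 31 gene lists were chosen with earlier results of these data known. Genes named were the 4 markers, the 25 with the smallest p (adjusted p under 0.05, then genes past the thresholds of the study with and without Z908 and without overlap), up to 3 tested neighbours on each side of a marker, and 2 to 4 members of a list. Myof, Rbp4, Tnks2, Fgfbp3, C3 and Nnt, and list members beyond 4, were chosen after their values were seen. Promoters came from RefSeq (GRCm38.p6), where 3 of 6 looked up matched.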

Additional observations from a re-analysis of the deposited data

How the results depend on the processing

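The number of genes with an adjusted p under 0.05 was 1 with all 6 cultures, 9 with DESeq2, 2 with all genes that had at least 1 count, 0 in the libraries labelled untreated, 3 in the limma model of 12 libraries with the replicate block, 2 with all 9 cultures in 1 fit and 0 to 10 as each culture was left out. It was 1 with total count scaling, upper quartile scaling, the libraries labelled TNF, the hepatocyte list left out and mitochondrial genes left out. Genes past the thresholds of the study numbered 291 to 530 as each culture was left out, with the highest count without Z909. Without Z908, DESeq2 called 8 genes where edgeR called 1. The interaction gave 7 genes with all genes that had at least 1 count, 2 with DESeq2 and 0 to 10 as each culture was left out (10 without Z909, 3 without Z912 and 1 without Z913). Of the 7, Trf, Alb, Serpina1c, Gc and Hpx were on the hepatocyte list, and Gm20425 and Mxd1 were not. Without Z912 the called genes were Alb, Serpina1c and Trf, and without Z913 Trf alone. Those without Z909 held Trf, Serpina1c and mitochondrial genes such as mt-Nd1. DESeq2 called Fkbp14 and Rps4x. Alb and Trf were highest in the Z908 library labelled untreated. Genes without overlap fell from 1127 over cultures to 34 over libraries, since 6 values a group overlap more readily than 3. Hepatocyte list members past the thresholds of the study numbered 4 to 18 and regenerative list members 5 to 7 as each culture was left out. For Ide the adjusted p was 0.053 in the libraries labelled untreated.

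Over 401 alternative values of the 26 genes, 0 changed direction, 382 kept their side of the adjusted threshold, 15 passed it in addition and 4 lost it, the last all for Ide. None of the 26 genes overlapped between the facilities over cultures, and for most of them this was a condition of being named. A change of direction was therefore unlikely from the start, and the 0 is no separate evidence of stability. Most of the 26 were far above the adjusted threshold in the main fit, so that keeping their side says little. The replicate block changed the call of Bnip3l and Dpysl2 and of no other gene among the 26. DESeq2 without Z908, the counts of list members as cultures were left out and the mitochondrial genes left out were chosen after seeing the data. With 3 cultures per facility, and the liver transcripts in 1 of them, genes with small differences could not be resolved. The causes of these changes were not tested.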

Other observations

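The 17 genes that were higher in all 6 SE than in all 6 SR libraries held, beside Ide, Btaf1, Lrrfip1 and Kifc3, the genes Pgap1 (an enzyme that remodels glycosylphosphatidylinositol anchors), Smc5 (a subunit of a complex of chromosome maintenance and repair) and G6pdx (glucose-6-phosphate dehydrogenase). Pgap1 was at 89.5, 94.3 and 89.1 CPM in Z908, Z909 and Z910 and at 125, 115 and 142 CPM in Z911, Z912 and Z913. Smc5 was at 37.1, 34.7 and 36.3 CPM in SR and at 63.5, 45.2 and 49.3 CPM in SE. The 17 genes higher in all SR libraries held, beside Bnip3l, Dpysl2 and Khdrbs3, Pdgfa (a platelet-derived growth factor chain), at 157, 162 and 176 CPM in SR and 102, 129 and 124 CPM in SE, and Acer1 (an alkaline ceramidase), at 37.2, 33.1 and 29.6 CPM in SR and 13, 25.1 and 24.4 CPM in SE. Of these 5 genes, only Smc5 passed the thresholds of the study both with all 6 cultures and without Z908. Pgap1 and G6pdx passed in neither fit, Pdgfa only without Z908 and Acer1 only with it. None of the 5 had an adjusted p under 0.05 by edgeR. These 5 genes were chosen after their values were seen, and the 2 libraries of a culture share their source.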
